A study of Homo sapiens with 8 samples.

Results

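This report describes what remained of the miRNAs of human embryonic stem cells when Dicer was lost. It compares 2 Dicer-null with 2 wild-type small RNA libraries, out of 8 libraries in the series, over all 594 mature miRNAs in the deposited table. All libraries came from H1, an established pluripotent stem cell line. The other 4 libraries, 2 homozygous and 2 hemizygous for the Dicer substitution S1344L, entered only the estimate of the spread and are named where they bear on a value. CRISPR-Cas9 was used to make the mutant lines, the labels call the RNA samples biologically independent, and how many clones stand behind a genotype is not given. The table lists miRNAs only, so the level of DICER1 itself was not checked.

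Most miRNAs are made in successive cuts. Drosha releases a hairpin from the primary transcript in the nucleus, Dicer removes its loop in the cytoplasm, and an Argonaute protein keeps one strand of the resulting duplex, the guide, while the other, the passenger, is mostly degraded. Known routes around these enzymes exist: miR-451a is trimmed by Argonaute 2 without Dicer, mirtrons and a few capped hairpins bypass Drosha but still need Dicer, and some entries of miRNA catalogues overlap snoRNAs, tRNAs or rRNAs, whose ends are made by other nucleases. In pluripotent cells the miR-302 cluster, one primary transcript that holds miR-302a to miR-302d and miR-367, is the most abundant source of miRNAs.

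RefSeq (GRCh38.p14) gave a mature sequence for 533 of the 594 names, and the sequences below carry the main contrasts. The first set are the miRNAs that rose in Dicer-null cells and had a RefSeq entry; the other 4 that rose were miR-3609, miR-10395-5p, miR-10395-3p and miR-4485-5p. They are written 5′ to 3′ with the seed, bases 2 to 8, in capitals. No 2 of them share a seed.
miR-12136: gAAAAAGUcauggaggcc
miR-1248: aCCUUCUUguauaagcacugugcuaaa
miR-1291: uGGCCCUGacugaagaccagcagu
miR-4485-3p: uAACGGCCgcgguacccuaa

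All 4 of these sequences lie whole inside a longer stable RNA of GENCODE release 29. miR-12136 is bases 1 to 18 of MT-TS1, a mitochondrial serine tRNA of 69 bases. miR-1248 is bases 1 to 27 of SNORA81 (178 bases) and miR-1291 is bases 2 to 25 of SNORA2C (137 bases); both hosts are H/ACA snoRNAs, which guide pseudouridylation of rRNA. miR-4485-3p is bases 893 to 912 of MT-RNR2, the mitochondrial 16S rRNA. RefSeq places miR-1248 at chr3:186786675-186786701 on the plus strand, inside SNORA81 and within the gene EIF4A2, and miR-1291 at chr12:48654494-48654517 on the minus strand, inside SNORA2C and within KANSL2. miR-12136 is placed at chr1:632668-632685 (minus strand, intron of AL669831.3) and miR-4485-3p at chr11:10508277-10508296 (minus strand, exon of MTRNR2L8), so these 2 sequences occur both at a nuclear locus and in a mitochondrial transcript, and their reads cannot be told apart by source.

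The second set hold UGAUG followed by CUGA, the core letters of boxes C and D of box C/D snoRNAs, in capitals. The motif was chosen after the sequences were seen and was searched on the printed strand.
miR-7974: aggcugUGAUGcucucCUGAgccc
miR-573: cugaagUGAUGuguaaCUGAucag
miR-4517: aaauaUGAUGaaacucacagCUGAg
miR-10523-5p: gacaaUGAUGagaagacCUGAgga
miR-3662: gaaaaUGAUGaguagugaCUGAug

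The third set are abundant canonical miRNAs, shown because members with one seed were lost to different extents. The seed is again in capitals. The miR-302 guides share one seed with miR-372-3p, and miR-367-3p, miR-92a-3p and miR-363-3p share another.
miR-302a-3p: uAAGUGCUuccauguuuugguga
miR-302b-3p: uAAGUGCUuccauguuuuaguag
miR-302c-3p: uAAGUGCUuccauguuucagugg
miR-302d-3p: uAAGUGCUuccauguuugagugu
miR-372-3p: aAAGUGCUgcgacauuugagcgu
miR-367-3p: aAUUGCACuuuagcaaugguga
miR-92a-3p: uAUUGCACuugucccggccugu
miR-363-3p: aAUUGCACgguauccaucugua

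Dicer-null libraries held far fewer miRNA reads. Wild-type libraries had 2680973 and 2725756 miRNA reads and Dicer-null libraries 165317 and 137655. Relative to the deposited denominator of each library, miRNA reads came to 2.21 ± 0.173 (SD, n = 2) in wild type and 0.151 ± 0.0460 in Dicer-null, so the wild-type ratio was 14.7 times the Dicer-null ratio. The groups did not overlap, and p was 0.333 in a two-sided exact permutation test, which cannot go lower with 2 libraries a group. The sources used here do not say how the authors set the denominator. Levels below are therefore given on the deposited scale as RPM (reads per 1000000 of that denominator), and as a share of miRNA reads, where every library sums to 100%. In these bulk samples, fewer cells with a miRNA and less miRNA per cell cannot be told apart. A single read was worth 0.715 and 1.33 RPM in the Dicer-null libraries, intervals cover counting error only, and 310 and 327 miRNAs reached 10 reads there, against 561 and 567 in wild type.

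On the deposited scale almost every miRNA was lower without Dicer. Of 594 miRNAs, 519 fell (87.4%), 8 rose (1.35%) and 67 did not pass limma's test at a Benjamini-Hochberg adjusted p under 0.05. The median log2 fold change of all 594, on log2(RPM + 1), was -4.60. It was -1.16 for shares of miRNA reads, where 70 rose (11.8%) and 289 fell (48.7%), and -0.61 after scaling each library by the median ratio, where 97 rose and 189 fell. The direction given for a miRNA therefore depends on the scale. Changes called in share are changes in the share of miRNA reads, and, apart from ratios between miRNAs or arms, other fold changes are on the deposited scale. By size on the deposited scale, 217 miRNAs lay 32- to 128-fold below wild type and 235 lay 8- to 32-fold below. Another 77 lay 2- to 8-fold below, 15 lay 128-fold or more below, 29 stayed within 2-fold and 21 were 2-fold or more above.

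**Figure D1:**
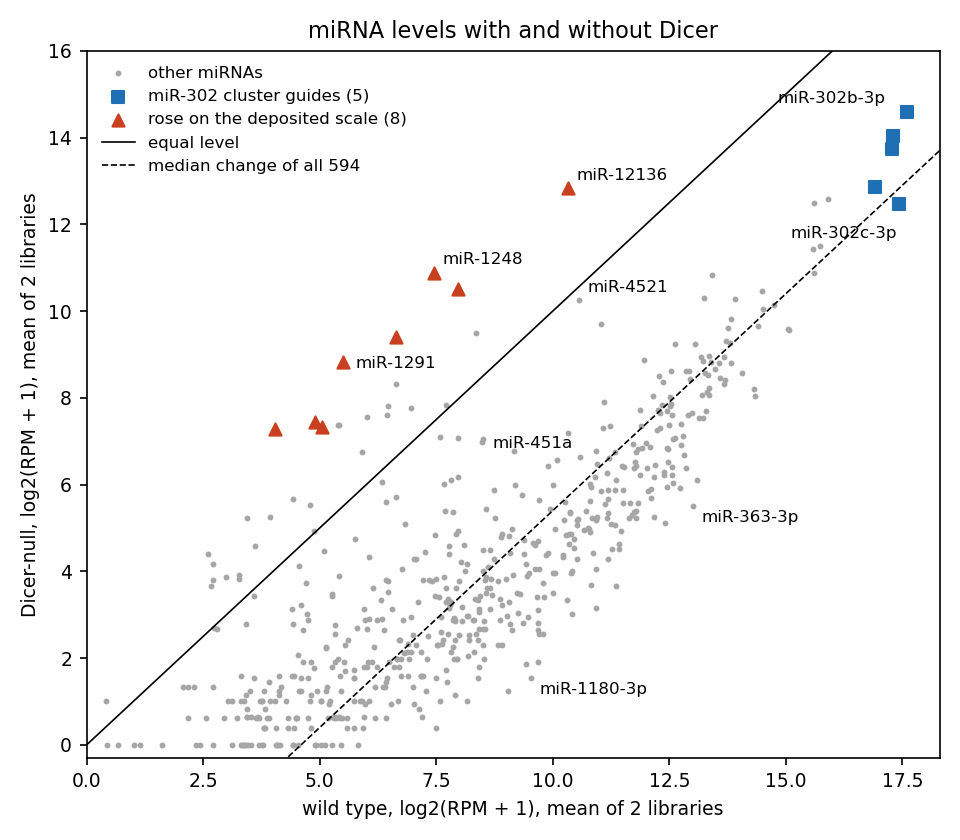
Mean log2(RPM + 1) of each of 594 miRNAs in wild type (x axis) and Dicer-null (y axis), 2 libraries each; the solid line is equal level and the dashed line is the median change of -4.60. The 8 miRNAs that rose lie above the solid line, and miR-302b-3p lies above the dashed line while miR-302c-3p lies close to it.

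The 8 miRNAs that rose were miR-1248, miR-1291, both arms of miR-4485, both arms of miR-10395, miR-3609 and miR-12136. In each of them both Dicer-null libraries were above both wild-type libraries. miR-12136, the mitochondrial tRNA sequence, had 1676 and 991 RPM in wild type and 4906 and 10936 RPM in Dicer-null, a log2 fold change of 2.51 ± 0.85 (SE; limma adjusted p = 0.00410). Its share rose from 0.0803% and 0.0425% to 4.15% and 5.97% of miRNA reads, which made it the fourth most abundant entry by the mean of the Dicer-null libraries. In replicate 1 it lay below miR-302a-5p, which had 5158 RPM. It was the only one of the 8 with at least 500 RPM in wild type.

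miR-1248 had 294 and 103 RPM in wild type and 917 and 3886 RPM in Dicer-null, the largest rise at 3.43 ± 0.93 (adjusted p = 0.000345). miR-1291, the other entry inside an H/ACA snoRNA, had 107 and 18.0 RPM in wild type against 246 and 824 RPM, a log2 fold change of 3.32 ± 1.01 (adjusted p = 0.00132). miR-4485-3p, the 16S rRNA sequence, had 30.4 and 7.70 RPM against 72.9 and 326 RPM, a change of 3.23 ± 1.02 (adjusted p = 0.00193). In all 3, wild-type replicate 2 was the lowest of the 4 libraries and Dicer-null replicate 2 the highest.

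The other 4 that rose covered 2 hairpins and miR-3609. miR-10395-5p had 520 and 178 reads in wild type and 1136 and 1984 in Dicer-null, and miR-10395-3p had 227 and 64 against 499 and 967. The 5p arm outnumbered the 3p arm 2.54 ± 0.347 times in wild type and 2.16 ± 0.159 times in Dicer-null (SD, n = 2; exact permutation p = 0.333), so both arms of this hairpin stayed present in similar proportion. miR-4485-5p had 77 and 20 reads against 104 and 256, and its ratio to the 3p arm was 2.10 ± 0.175 in wild type and 1.03 ± 0.0179 in Dicer-null. miR-3609 had 46 and 27 reads against 154 and 205. Their log2 fold changes on the deposited scale were between 2.27 and 2.77.

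**Figure D2:**
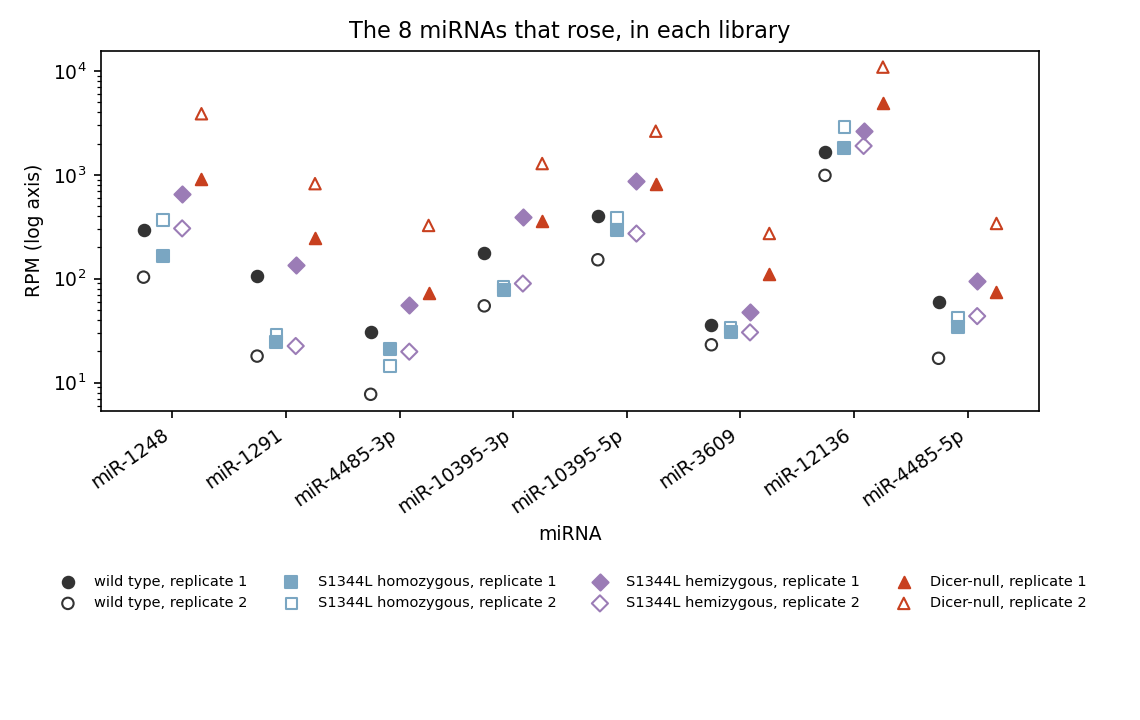
RPM on a log axis of the 8 miRNAs that rose, in each of the 8 libraries; filled symbols are replicate 1 and open symbols replicate 2. Dicer-null libraries (triangles) lie above wild-type libraries (circles) for each of the 8, and wild-type replicate 1 lies above replicate 2.

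These rises depended on single libraries on the deposited scale. Without wild-type replicate 2 none of the 8 passed limma's adjusted threshold (1 miRNA of 594 was higher at an unadjusted p under 0.05; log2 fold changes of the 8 from 1.40 to 2.68). Without Dicer-null replicate 2 none passed either (0 at an unadjusted p under 0.05; 1.18 to 2.45). Without wild-type replicate 1 miR-3609 was lost (adjusted p = 0.0530), and with only the 4 wild-type and Dicer-null libraries miR-4485-5p was (0.0662). All 8 kept their direction in each of these fits. As shares of miRNA reads, all 8 passed the test with all libraries, with log2 fold changes from 6.10 to 7.32. When 1 wild-type or Dicer-null library was left out, these ranged from 5.19 to 8.46. The 8 were chosen for rising on the deposited scale, while miRNA reads as a whole fell relative to the denominator. Their rise in share follows from this and is no separate support. Together they held 0.133% and 0.0586% of miRNA reads in wild type and 6.34% and 11.2% in Dicer-null.

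The summed level of the 8 also differed among libraries that were not Dicer-null. It was 2784 and 1367 RPM in wild type, 2455 and 3848 RPM in S1344L homozygous, 4874 and 2687 RPM in S1344L hemizygous and 7495 and 20514 RPM in Dicer-null cells. Hemizygous replicate 1, whose miRNA reads came to only 0.729 of its denominator, had 0.669% of its miRNA reads in the 8, against 0.111% in hemizygous replicate 2. The Dicer-null libraries had the highest values by both measures. Whether the low miRNA content of a library plays a part was not tested.

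Entries that match snoRNAs, tRNAs and rRNAs took a larger share of the Dicer-null miRNA reads as a whole. Of 533 sequences, 9 lie whole in a GENCODE small RNA or mitochondrial transcript (1.69%). All 9 rose in share, against 11.8% of all miRNAs, with a median log2 fold change of 5.80. All 9 also passed that test when any 1 of the 4 libraries was left out. They summed to 0.114% and 0.0540% of miRNA reads in wild type and 5.55% and 8.99% in Dicer-null. Most of the Dicer-null sums came from miR-12136, with 4.15% and 5.97%, and miR-1248, with 0.776% and 2.12%. On the deposited scale 4 of the 9 rose and the others had positive changes that did not pass. Those 4 are among the 8 chosen for rising on that scale, so their rise in share is no separate support. The other members of the 9 were miR-664a-3p and miR-664a-5p in SNORA36B, miR-664b-3p in SNORA36A and SNORA36C, miR-3651 in SNORA84 and miR-6516-3p in SCARNA16, a Cajal body RNA.

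Most of these sequences lay at an end of the host RNA. miR-664a-3p, miR-664b-3p and miR-6516-3p each end 3 bases before the 3′ end of the host, where H/ACA RNAs carry their ACA box, and miR-3651 runs to the last base. miR-12136 and miR-1248 begin at the first base of theirs. miR-664a-3p had 147 and 103 RPM in wild type and 216 and 218 RPM in Dicer-null, and miR-664b-3p had 80.2 and 21.4 against 161 and 168 RPM. The Dicer-null libraries were the higher for both, yet neither passed on the deposited scale (log2 fold change 0.81 ± 0.97 with limma adjusted p = 0.420, and 1.95 ± 1.02 with 0.0608). miR-664b-3p did pass as a rise with a pseudocount of 5 (adjusted p = 0.0437), with only the 4 libraries (0.0473), without S1344L hemizygous replicate 1 (0.0151), with moderation without trend (0.0382) and with a replicate block (0.0384). In share both rose.

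The sequences with box C and D letters also took a larger share, with more dependence on single libraries. UGAUG followed by CUGA occurs in 5 of 533 sequences (0.938%), and all 5 rose in share. They make up 8.77% of the 57 that rose in share and had a sequence. Since the motif was chosen after the sequences were seen, these counts describe the 5 and are no test of enrichment. UGAUG, with or without CUGA, occurs in 13 (2.44%). In share 5 of the 13 rose, all of them with CUGA, and 4 fell, against 11.8% and 48.7% of all miRNAs. miR-7974 was the most abundant, with 936 and 168 reads in wild type and 501 and 1074 in Dicer-null, a log2 change in share of 5.04 ± 1.29 (limma adjusted p = 0.0118). miR-573 had 205 and 29 reads against 140 and 264, and miR-4517 had 188 and 58 against 184 and 215. On the deposited scale the changes of the 5 were between 1.14 and 1.79 and did not pass. Wild-type replicate 1 was above replicate 2 in each, and without replicate 2 miR-3662 alone of the 5 passed in share (adjusted p from 0.0284 to 0.0952). Without Dicer-null replicate 2 miR-573 and miR-7974 did not pass.

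The number in a name follows the order in which miRNAs were registered. Among the 71 miRNAs numbered 3000 and above, 6 rose and 40 fell on the deposited scale, where 1.35% of all miRNAs rose and 87.4% fell. Their median change in share was 0.74, and their summed share went from 0.360% ± 0.0154 to 9.08% ± 2.98 (SD, n = 2). Of this Dicer-null sum, miR-12136 alone held 5.06% ± 1.28. Among the 47 numbered from 1000 to below 3000, 2 rose and 41 fell, with a median change in share of -1.48, and their summed share went from 0.937% ± 0.00655 to 2.42% ± 1.34. Among the 474 numbered under 1000, whose median change in share was -1.21, 436 fell and limma called 0 higher (0 also at an unadjusted p under 0.05), and their share went from 98.4% ± 0.0349 to 88.4% ± 4.29. Entries with no arm in their name went from 1.75% ± 0.0387 to 9.80% ± 3.29. They include miR-12136 and also miR-1248, which held 1.45% ± 0.951 in Dicer-null. The sequences that rose in share began with U in 15.8% of cases (9 of 57) those that fell in share in 46.4% (123 of 265), and those not called in share in 30.3% (64 of 211). Argonaute 2 is known to favour U or A as the first base, and sequences that begin with A were not counted here.

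Canonical guides still made up most of the remaining miRNA reads. The 5 guides of the miR-302 cluster all fell on the deposited scale, as did 87.4% of all miRNAs, with a median of -3.56, and they held 38.1% and 36.4% of wild-type and 51.3% and 43.9% of Dicer-null miRNA reads. miR-302b-3p remained the most abundant miRNA in the group means: it had 196613 and 200530 RPM in wild type and 26280 and 23265 RPM in Dicer-null, a change of -3.01 ± 0.70 (limma adjusted p = 2.80e-05). In share it went from 9.42% and 8.60% to 22.2% and 12.7%, and rose by 0.90 ± 0.23 (adjusted p = 0.0125). That rise in share did not pass without wild-type replicate 2 (adjusted p = 0.0625), with only the 4 libraries (0.0504) or with moderation without trend (0.0532), nor did that of miR-302a-3p without wild-type replicate 2 (0.0505) or with moderation without trend (0.0758).

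Members of this one cluster were lost to different extents. miR-302c-3p had 177922 and 174871 RPM in wild type and 4464 and 7139 RPM in Dicer-null, a change of -4.97 ± 0.73 (limma adjusted p = 1.85e-10), and its share fell by 1.06. Read against miR-302b-3p in the same library, which no scaling can alter, miR-302c-3p stood at 0.905 and 0.872 in wild type and at 0.170 and 0.307 in Dicer-null. miR-302d-3p stood at 0.621 and 0.624 against 0.226 and 0.401, and miR-302a-3p at 0.817 and 0.811 against 0.604 and 0.773. All 3 ratios were lower in both Dicer-null libraries (exact permutation p = 0.333 for each, the smallest possible). miR-367-3p stood at 0.699 and 0.923 against 0.309 and 0.976, so its groups overlapped.

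The miR-302 cluster passengers had a median change near that of the guides; the difference was not tested. Of 5, 4 fell on the deposited scale, with a median of -3.09, and in share 2 rose, 1 fell and 2 were not called, the same counts as for the guides. miR-302c-5p fell most, by 4.73 ± 0.82 on the deposited scale (limma adjusted p = 3.20e-08), and its share fell by 0.83, a call lost when wild-type replicate 2 was left out (0.0770) and with moderation without trend (0.0508). miR-302a-5p fell by 3.32 ± 0.76 and its guide miR-302a-3p by 3.26 ± 0.70. miR-367-5p had 1045 and 4194 RPM in wild type and 615 and 1113 RPM in Dicer-null, a change of -1.34 ± 0.88 that did not pass (limma adjusted p = 0.137), and its share rose by 2.57 ± 0.51 (adjusted p = 0.00391). miR-302b-5p fell by 2.58 ± 0.87 on the deposited scale (adjusted p = 0.00382), a call lost without wild-type replicate 2 (0.120) or Dicer-null replicate 1 (0.0684). That of miR-302d-5p was also lost without Dicer-null replicate 1 (0.0930). The passengers together held 4.60% ± 1.20 of wild-type and 6.86% ± 0.0424 of Dicer-null miRNA reads (SD, n = 2).

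The miR-371 to miR-373 cluster on chromosome 19, a second pluripotency cluster, followed the bulk more closely. All 6 measured arms fell on the deposited scale, with a median of -4.19, and their summed share was 2.13% ± 0.0699 in wild type and 1.74% ± 0.608 in Dicer-null. miR-372-3p, with the miR-302 seed, had 14116 and 14846 RPM in wild type and 467 and 1713 RPM in Dicer-null (-4.01 ± 0.80). Its change in share did not pass the test with all libraries, and its sign differed between the fits that left out one or the other Dicer-null library (0.51 without replicate 1, -0.73 without replicate 2). miR-373-5p fell least (-2.39 ± 0.95), a call lost without wild-type replicate 2 (limma adjusted p = 0.167) or Dicer-null replicate 1 (0.0894). In share it rose (adjusted p = 0.0152), a call that needed both wild-type replicate 1 (0.0988 when left out) and Dicer-null replicate 1 (0.0578).

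The miR-17-92 family, known for promoting proliferation, had a lower median change than the miR-302 cluster guides. All 14 guides of miR-17-92 and its paralogs fell on the deposited scale, with a median of -5.08, and 11 fell in share, with a median of -1.18. Of all miRNAs, 87.4% fell on the deposited scale and 48.7% in share, with medians of -4.60 and -1.16. miR-92a-3p was the exception that rose in share, from 2.25% and 2.28% to 4.21% and 3.66% (0.79 ± 0.12; limma adjusted p = 0.00136). miR-363-3p, which carries the seed of miR-92a-3p and comes from the paralogous cluster on the X chromosome, went from 7165 and 9474 RPM to 28.6 and 69.2 RPM, a change of -7.50 ± 0.86 (adjusted p = 3.22e-15). Its ratio to miR-92a-3p was 0.153 and 0.178 in wild type and 0.00574 and 0.0103 in Dicer-null. miR-17-5p and miR-20a-5p come from MIR17HG, the host of 1 of the 2 loci of miR-92a-3p. They went from 0.998 and 1.01, and from 0.983 and 0.990, of its reads to 0.300 and 0.348, and to 0.472 and 0.489.

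By seed, the balance of the remaining reads shifted among the large families. Sequences with the miR-302 seed AAGUGCU held 32.1% ± 2.29 of wild-type and 39.5% ± 8.79 of Dicer-null miRNA reads, and those with AUUGCAC (miR-92a, miR-363, miR-367) held 11.4% ± 0.979 and 14.4% ± 3.48. The groups overlapped for both seeds, with 33.7% and 30.4% against 45.7% and 33.3% for AAGUGCU, and 10.8% and 12.1% against 12.0% and 16.9% for AUUGCAC. Sequences with AAAGUGC, the seed of miR-17-5p and miR-20a-5p, went from 7.81% ± 0.403 to 4.38% ± 0.0640, without overlap.

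The 22 other canonical guides all fell on the deposited scale, with a median of -5.31, and 20 of them fell in share, against 87.4% and 48.7% of all miRNAs. miR-200c-3p, an epithelial miRNA, went from 8514 and 9004 RPM to 44.3 and 102 RPM, the largest fall of this list at -7.00 ± 0.85 (limma adjusted p = 9.28e-14). miR-103a-3p went from 19999 and 21702 RPM to 164 and 425 RPM (-6.30 ± 0.85; adjusted p = 7.31e-12), and its share fell by 2.39. miR-21-5p, common to many cell types, fell least at -4.02 ± 0.82, and its change in share did not pass. Among the 235 miRNAs with at least 500 RPM in wild type, the 10th, 50th and 90th percentiles of change were -6.58, -5.34 and -3.88.

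The largest falls among miRNAs with at least 50 RPM in 1 group went beyond those. miR-1180-3p had 827 and 996 reads in wild type and 1 and 3 in Dicer-null (log2 fold change -7.99 ± 1.02 on the deposited scale; limma adjusted p = 9.22e-13), and its share fell by 4.73 on the log2 scale. It was followed by miR-330-5p, miR-345-5p, miR-324-5p, miR-301b-3p, miR-324-3p, miR-363-3p, miR-1307-3p, miR-1307-5p and miR-142-3p, with changes from -7.79 to -7.22. Both arms of miR-324 and of miR-1307 are among these 10. With so few Dicer-null reads, their changes are limited by depth. miR-345-5p had 8 and 8 reads left of 1914 and 2979, and miR-301b-3p had 10 and 14 of 3144 and 3287.

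No reads at all were left for 33 miRNAs in either Dicer-null library, among them 24 of the 300 3p arms and 3 of the 227 5p arms. All but 1 were under 50 RPM in wild type, and a count of 0 allows up to 3 reads, so these losses are lower bounds. The exception was miR-598-3p, with 52 and 89 reads in wild type. Set against 3 reads over the group, it was at least 41.8-fold lower.

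A small group stayed within 2-fold on the deposited scale while holding at least 50 RPM in both groups. There were 8: miR-4521, miR-92a-1-5p, miR-664a-3p, miR-222-5p, miR-21-3p, miR-6724-5p, miR-7977 and miR-124-5p. None passed limma's test (adjusted p from 0.357 to 0.898, and none at an unadjusted p under 0.05), but the standard errors of 0.86 to 1.02 leave room for changes of more than 2-fold in either direction, so no equality is shown. In share all 8 rose, which follows from this choice, since miRNA reads as a whole fell relative to the denominator. The rise in share of miR-222-5p was lost with moderation without trend (limma adjusted p = 0.0711), a replicate block (0.0552) or a pseudocount of 0.5 (0.0548). Its log2 change in share ranged from 2.4 to 4.4 when 1 wild-type or Dicer-null library was left out. The call did not hold in any of these fits. Of the 4 whose partner arm is in the table under the matching name, 3 were the less abundant arm in wild type.

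The best represented of these was miR-4521, with 731 and 3090 RPM in wild type and 923 and 1601 RPM in Dicer-null. The Dicer-null libraries lay between the wild-type libraries. miR-222-5p, the passenger of miR-222-3p, had 91.9 and 392 RPM in wild type and 84.3 and 217 RPM in Dicer-null, and miR-21-3p, the passenger of miR-21-5p, had 192 and 327 against 115 and 154 RPM. miR-92a-1-5p had 103 and 417 against 171 and 302 RPM. In each of these except miR-21-3p the groups overlapped, and wild-type replicate 2 was the highest of the 4 libraries in all of them.

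Over all hairpins with both arms measured, the less abundant arm of the wild type was depleted less. Its median change on the deposited scale was -4.02 over 186 arms, against -5.23 for the 186 more abundant arms. In share 21 of the former and 10 of the latter rose while 54 and 134 fell. Of all miRNAs, 11.8% rose and 48.7% fell in share, so the rises of the less abundant arms were near the share of all. The split uses wild-type values that also enter the change, and the added 1 RPM makes folds of low arms smaller, so it is a description only.

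miR-451a, the known Dicer-independent miRNA, had a smaller change than each of the other canonical guides, a difference that was not tested. A small change was not particular to it. The passengers miR-367-5p (-1.34), miR-21-3p (-0.90) and miR-222-5p (-0.49) changed less, although the median of the less abundant arms was -4.02. miR-451a had 360 and 534 reads in wild type and 201 and 83 in Dicer-null, which is 280 and 457 RPM against 144 and 110 RPM. Its change on the deposited scale was -1.50 ± 0.94 and did not pass (limma adjusted p = 0.121), although it passed as a fall with only the 4 libraries (0.0284) and without S1344L hemizygous replicate 1 (0.00787). In share it rose by 2.39 ± 0.38 (adjusted p = 0.00182), from 0.0134% and 0.0196% to 0.122% and 0.0603%. It stood at 0.00598 and 0.00858 of miR-92a-3p in wild type and 0.0289 and 0.0165 in Dicer-null, without overlap.

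Most measured arms of the hairpins listed as bypassing Drosha but not Dicer fell on the deposited scale, as most miRNAs did. Of 20 listed mirtron arms 2 were measured: miR-1227-3p went from 118 and 91 reads to 0 and 1, and miR-1237-3p from 12 and 11 to 0 and 0; both fell on both scales, although the fall in share of miR-1227-3p did not pass without wild-type replicate 1 (limma adjusted p = 0.0594). Of the 7 measured arms of miR-320, miR-484 and miR-1306, 6 fell on the deposited scale, a share near the 87.4% of all miRNAs. Both arms of miR-1306 lie in an exon of DGCR8, and whether this hairpin bypasses Drosha was not tested. miR-320a-3p went from 6235 and 8258 RPM to 57.2 and 178 RPM (-6.13 ± 0.89; limma adjusted p = 1.01e-10), and miR-484 from 2800 and 2800 RPM to 17.9 and 47.9 RPM (-6.53 ± 0.98; adjusted p = 3.37e-10). Their shares fell by 2.24 and 2.67 on the log2 scale. Unlike these, miR-320a-5p had 4 and 41 reads in wild type and 19 and 29 in Dicer-null; it did not pass on the deposited scale and rose in share by 4.63.

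The lists of known fragments summarise the same contrast. All 6 measured snoRNA-derived entries rose in share, with a median of 5.64, and 2 of them rose on the deposited scale, with a median of 1.87. All 6 measured fragments of other abundant RNAs rose in share, with a median of 3.73; on the deposited scale 2 rose and the median was -0.11. miR-7977, which ends in CCA like a mature tRNA, had 53 and 180 reads in wild type and 59 and 77 in Dicer-null. Of all 7 sequences with that end, 3 rose and 2 fell in share. The rise in share of miR-4454 was lost without wild-type replicate 1. miR-1260b, another entry of that list, had 33 and 126 against 21 and 33, and its rise in share (2.81) was lost without wild-type replicate 1 (limma adjusted p = 0.115) or Dicer-null replicate 2 (0.0795). For comparison 11.8% of all miRNAs rose in share.

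**Figure D3:**
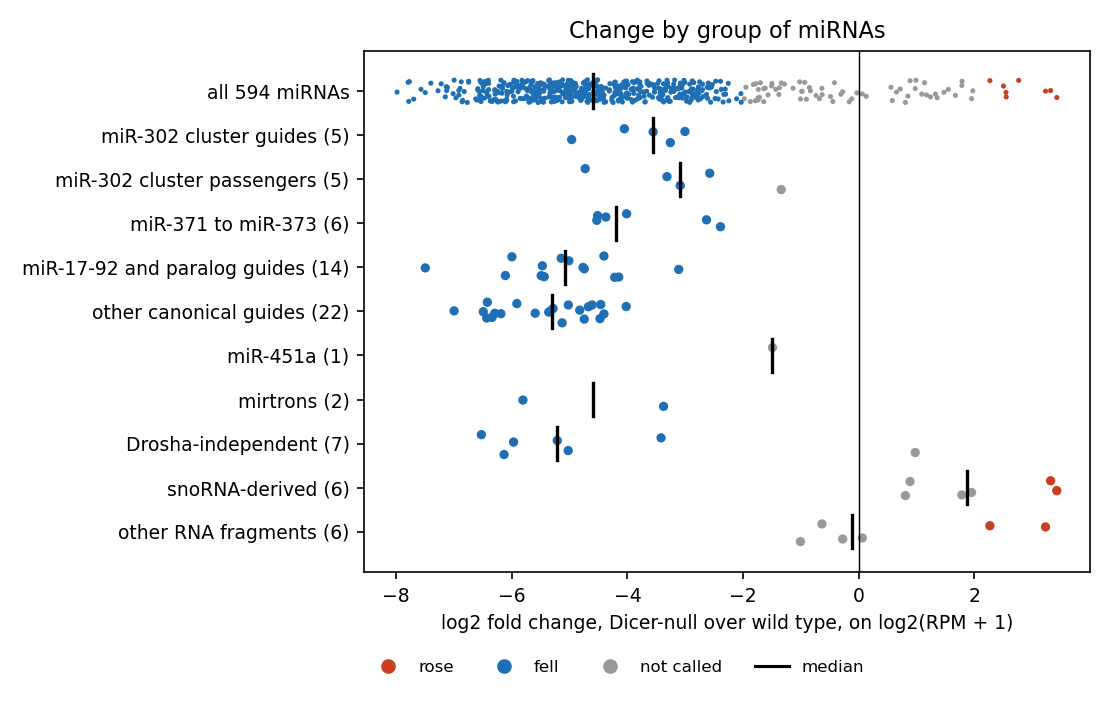
Log2 fold change on the deposited scale (x axis) of each measured member of the lists, with medians as vertical bars and all 594 miRNAs in the top row. Medians run from -5.31 in the other canonical guides to 1.87 in the snoRNA-derived entries, and 8 points in the top row are called higher.

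Arm balance changed in 61 of 186 hairpins with both arms named. The log2 ratio of (3p RPM + 1) over (5p RPM + 1) moved toward 3p in 36 (19.4%) and toward 5p in 25 (13.4%). Of the 61, 58 were nearer to an even ratio in Dicer-null than in wild type, which is in part built in, since the added 1 RPM pulls ratios of few reads toward 0. In 23 of the 36 that moved toward 3p and 5 of the 25 that moved toward 5p, an arm had under 10 Dicer-null reads. Among the 111 hairpins with at least 10 reads on each arm, 13 of those calls were toward 3p and 20 toward 5p. Without wild-type replicate 1 the calls toward 5p came down to 12.

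In the largest shifts toward 5p the passenger arm was depleted less than the guide. miR-320a moved most: the 3p arm went from 8007 and 9652 reads to 80 and 134 while the 5p arm had 4 and 41 in wild type and 19 and 29 in Dicer-null, a change in log2 ratio of -7.11 ± 0.77 (limma adjusted p = 0.000443). For miR-222 the 3p arm went from 12457 and 12173 reads to 210 and 214 while the 5p arm had 118 and 458, then 118 and 163 (-5.11 ± 1.24; adjusted p = 0.00908, and 0.0638 without wild-type replicate 1). miR-365a, miR-331 and miR-23b followed, with changes of -4.63, -4.17 and -3.94. That of miR-23b was lost without wild-type replicate 1 (0.0533) or Dicer-null replicate 2 (0.0525).

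The largest shifts toward 3p had almost no reads behind them. miR-100, miR-145, miR-181a, miR-150 and miR-503 moved by 3.67 to 5.15, but their 3p arms held between 0 and 2 reads in each Dicer-null library. Among hairpins with at least 10 Dicer-null reads on each arm, let-7a (3.41 ± 0.56; limma adjusted p = 0.00185) and miR-21 (3.12 ± 0.45; adjusted p = 0.000968) moved most toward 3p; these 2 were chosen after their values were seen. In let-7a and miR-21 the 5p arm is the guide, so here too the passenger was depleted less.

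**Figure D4:**
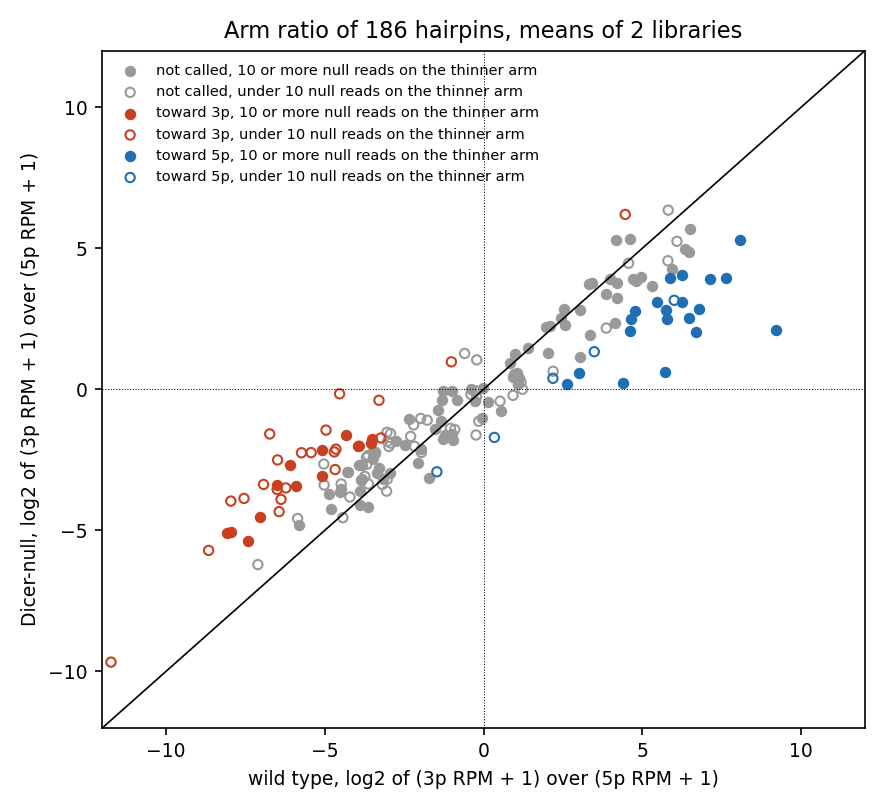
Log2 of (3p RPM + 1) over (5p RPM + 1) per hairpin in wild type (x axis) and Dicer-null (y axis), means of 2 libraries; open symbols have under 10 Dicer-null reads on the thinner arm and the line marks no change. Called hairpins lie mostly between that line and 0, and 28 of the 61 are open.

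Marker miRNAs of other cell types held a small part of what remained. The 8 embryonic stem cell markers held 38.9% ± 1.19 of wild-type and 48.9% ± 4.74 of Dicer-null miRNA reads (SD, n = 2). Fibroblast-enriched miRNAs (10 of 12 measured, with miR-143-3p at 0 in both Dicer-null libraries) held 2.45% ± 0.193 and 1.93%, and neural miRNAs (7 of 8) 0.956% ± 0.156 and 0.647% ± 0.00648. Mesoderm and endoderm miRNAs (5 of 7) held 0.0576% ± 0.00346 and 0.0204% ± 0.00403, and blood miRNAs (6 of 7, among them miR-451a) 0.108% ± 0.00847 and 0.149% ± 0.0503. The pluripotency profile of the labelled cell type was present in all 4 libraries.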

How the data were processed

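Small RNA libraries of H1 cells, with 2 per genotype, were compared through the authors' table of 594 miRNAs. Per the file headers it has 1 column per library, and its deposited values are log2 RPM with 0.5 reads added, as read from the values. Cutadapt, limma and hg38 appear in their tools and builds per the submitters' processing notes; aligner, counting and denominator were not given in the sources used here. RPM had been planned for, so the log2 values were turned back to RPM and reads (largest distance from a whole read 7.31e-09).

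Changes were fitted with limma 3.58.1 (R 4.3.3) on log2(RPM + 1), and again on reads per 1000000 miRNA reads + 1, over all 8 libraries with 1 mean per genotype and a variance trend, with two-sided p-values and a Benjamini-Hochberg threshold of 0.05; the method was tested on simulated data. Only 4 residual degrees of freedom exist, and the estimated prior on the deposited scale was infinite. p-values reflect the spread between these 8 libraries. With that prior, each deposited-scale SE and p-value rests on a spread shared by miRNAs of similar level, not on that miRNA's own replicates. Arm ratios used limma without trend. Single values used exact permutation tests. Ratios, shares and SDs are over 2 libraries, and shares carry counting error only.

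Named miRNAs are the 10 largest rises and falls on the deposited scale (8 rose) and the 10 largest rises in share, among those called, with groups that do not overlap and a mean of 50 RPM or more in either group; the top 10 of each genotype by level; up to 4 per list; those within 2-fold; and 5 hairpins per direction. Others named (sequence matches, the extremes of a list) were chosen after their values were seen. The members and lists were chosen with earlier results of these data known. Alternatives were other pseudocounts, a 50 RPM filter, fewer libraries, no trend, a replicate block, median-ratio scaling and leaving out each wild-type and Dicer-null library, and S1344L hemizygous replicate 1.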

Additional observations from a re-analysis of the deposited data

How the results depend on the processing

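Median-ratio scaling, which centres the libraries, gave 97 rises and 189 falls in place of 8 and 519 on the deposited scale. Leaving out 1 wild-type or Dicer-null library gave 0 to 10 rises and 458 to 507 falls, and leaving out S1344L hemizygous replicate 1 gave 12 and 534. A pseudocount of 5 gave 12 rises. In share, each alternative stayed within 1.5 times of 70 rises and 289 falls. For arm ratios a pseudocount of 5 gave 71 toward 3p and 43 toward 5p, hairpins of at least 50 RPM in each group gave 17 toward 3p, and the filter of 10 Dicer-null reads on each arm, added after seeing the data, gave 20. Leaving out 1 wild-type or Dicer-null library gave 26 to 42 toward 3p and 12 to 28 toward 5p. The 5p share of arm-named reads, -6.12 points with all miRNAs, was 3.75 points without the 5 most abundant wild-type miRNAs. Without the 5 most abundant Dicer-null miRNAs, miRNA reads over the denominator differed by -1.49 in place of -2.06.

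Labels do not say that replicate numbers mark shared batches. Deviations of same-numbered wild-type and Dicer-null libraries correlated at r = 0.0171 across miRNAs, so the numbers are not used as pairs. For wild type and S1344L hemizygous r was 0.612, and for the remaining pairs of genotypes it lay between -0.105 and 0.0975. The cause was not tested. With a replicate block, 10 rose and 522 fell on the deposited scale, 74 rose and 301 fell in share, and 45 and 35 hairpins moved toward 3p and 5p.

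Median-ratio scaling turned these negative changes on the deposited scale, not all of which had passed the test, into positive values: miR-124-5p 3.54, miR-1260b 3.43, miR-16-5p 0.054, miR-19b-3p 0.30, miR-20a-5p 0.37, miR-21-3p 3.60, miR-21-5p 0.49, miR-222-5p 4.01, miR-302a-3p 1.26, miR-302a-5p 1.20, miR-302b-3p 1.51, miR-302b-5p 1.94, miR-302d-3p 0.46, miR-302d-5p 1.43, miR-367-3p 0.96, miR-371a-5p 0.14, miR-372-3p 0.50, miR-451a 3.0, miR-4521 4.21, miR-7977 4.20 and miR-92a-3p 1.40. Leaving out 1 library turned the sign of values near 0. On the deposited scale these ranged from -2.02 to 0.0063 for miR-1260b, -1.53 to 0.55 for miR-222-5p, -0.46 to 0.58 for miR-3648, -1.34 to 0.73 for miR-4521, -1.21 to 0.66 for miR-7977 and -0.87 to 1.14 for miR-92a-1-5p. In share they ranged from -0.28 to 0.051 for miR-21-5p, -0.075 to 0.78 for miR-367-3p and -0.73 to 0.51 for miR-372-3p. The cause was not tested. Depth limits the Dicer-null values: 310 and 327 miRNAs reached 10 reads.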
